A study of Saccharomyces cerevisiae with 48 samples.

Results

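The 8 genes described here encode stable non-coding RNAs of budding yeast and were taken by name: SCR1, RPR1, SNR6, NME1, LSR1, SNR14, SNR19 and TLC1. All 8 were found among the 6431 genes of the 16 nuclear chromosomes in the RefSeq R64 gene table. SCR1, RPR1 and SNR6 are made by RNA polymerase III and the other 5 by RNA polymerase II. The series holds 48 libraries, of which 24 are immunoprecipitates with a peak list each and 24 are inputs, not analysed here. In 4 lists the target was Rpb1, the largest RNA polymerase II subunit, and in 20 it was DNA that had taken up biotinylated trimethylpsoralen (bTMP), a compound that enters under-wound DNA more readily. Each group had 1 library, so no value for a single strain and condition has a replicate.

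The Rpb1 groups were wild type, sen1, rrm3 and sen1rrm3 in S phase. The bTMP groups covered the same 4 strains under 3 conditions (S phase, log phase, 32 °C), the strains top1, sen1top1, rrm3top1 and sen1rrm3top1 in log phase, and the strains top2-1, sen1top2-1, rrm3top2-1 and sen1rrm3top2-1 at 32 °C. All cultures started in the medium YPG and were moved to YPD, which has glucose. S-phase cultures were arrested in G1 with alpha-factor and collected 45 to 50 min after release at 23 °C, log cultures spent 2.5 h in YPD, and the 32 °C cultures spent 1.5 h at 25 °C and 1 h at 32 °C. Which alteration the names sen1, rrm3 and top1 stand for was not given in the sources used here. Sen1 is a helicase that helps to end transcription of short non-coding RNAs, Rrm3 one that helps forks move through protein-bound DNA, and Top1 and Top2 are the topoisomerases that relax supercoils.

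RNA polymerase II ends most short non-coding transcripts through the Nrd1-Nab3-Sen1 complex, while RNA polymerase III stops at short runs of T. The RNAs themselves are the cores of large particles: LSR1 (U2), SNR14 (U4), SNR19 (U1) and SNR6 (U6) build the spliceosome, RPR1 is the RNA of RNase P, which trims the 5′ ends of tRNAs, NME1 is that of RNase MRP, which cuts precursor ribosomal RNA, SCR1 is that of the signal recognition particle, and TLC1 is the template RNA of telomerase. The 3′ ends of spliceosomal RNA precursors are also cut by the RNase III enzyme Rnt1, and TLC1 has an Nrd1-Nab3-Sen1 dependent end as well as longer polyadenylated forms.

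The lists differ in ways that touch the values. Between 2016 and 2136 peaks made up an Rpb1 list, and they took in 18.9% to 20.2% of the genome. Of the bTMP lists, 14 had peaks as close as 156 to 166 bp apart and covered 7% to 11.7%, and 6 had no gap under 591 bp and covered 17.5% to 25.9%. These 6, called widely spaced here, came from S phase (4 lists) and from 32 °C (sen1 and sen1rrm3). Read depth is unknown. As a check of the labels, RRM3 had Rpb1 peaks over 14.9% of its length in wild type and 51.0% in sen1, and 0% in rrm3 and sen1rrm3. TOP1 had a bTMP peak in 17 of the 20 bTMP lists, which is more than the lists of strains without top1. Since the alteration behind top1 is not given, peaks on this gene neither bear out nor contradict the top1 label. All 8 genes of the 4 core histones, which are transcribed in S phase, were covered at 100% by Rpb1 in each of the 4 strains. No Rpb1 list is of another stage, so this cover does not check the S-phase label.

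Rpb1 separated the genes by polymerase in all 4 strains. NME1, LSR1, SNR14 and SNR19 lay wholly under Rpb1 peaks in each list, and TLC1 was covered at 95.6% in wild type, 91.2% in sen1, 95.5% in rrm3 and 57.6% in sen1rrm3. SCR1 and SNR6 had no Rpb1 peak in any strain, and RPR1 only a brush of one. Thus 5 of the 8 genes had at least 50% of their length under Rpb1 peaks in each strain, against 22.5% of all genes (wild type), 25.7% (sen1), 22.3% (rrm3) and 23.4% (sen1rrm3). Since the polymerase was part of how the genes were chosen, the split describes them and was not tested.

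**Figure D1:**
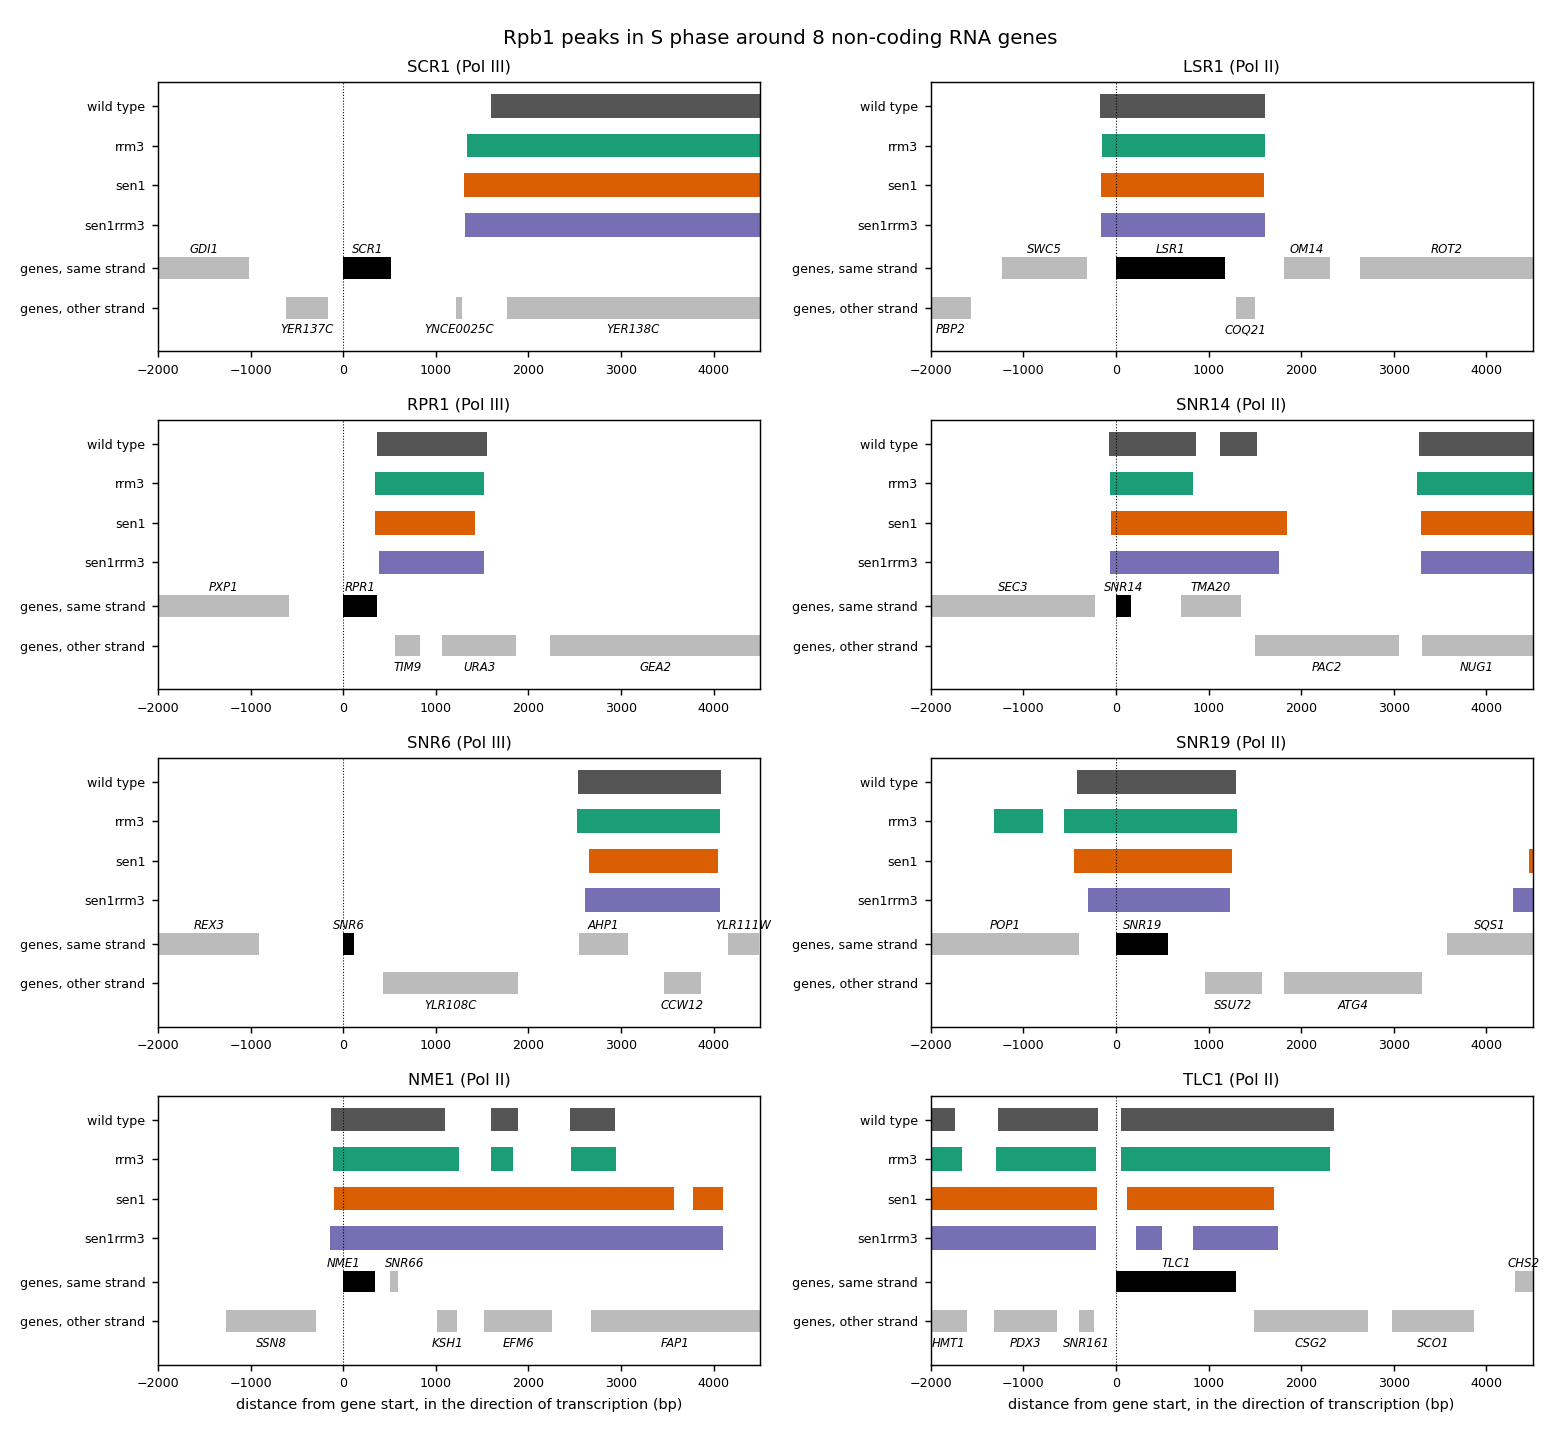
Rpb1 peaks (coloured bars, 1 row per strain) around each of the 8 genes, drawn along the direction of transcription in bp from the gene start, with annotated genes below (black, the named gene; grey, others). Peaks run further downstream of NME1 and SNR14 in sen1 and sen1rrm3, end earlier downstream of TLC1 in those strains, and do not reach SCR1 or SNR6.

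Among the RNA polymerase II genes, LSR1 lay under the peaks that the authors scored highest. Its wild-type peak, on chromosome II from 680248 to 682033, ranked 36 of 2037 by the authors' score, a value per peak whose meaning the sources used here do not state. The peak over NME1 ranked 61, that over SNR19 143, that over SNR14 347 and that over TLC1 745 in the same list. LSR1 ranked first among the 5 in the mutants too, at 39 in sen1, 45 in rrm3 and 35 in sen1rrm3. The order LSR1, NME1, SNR19, SNR14, TLC1 was the same within each of the 4 lists when TLC1 was placed by its better peak.

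How far Rpb1 reached past the 3′ end divided these 5 genes into 3 kinds. The distance runs from the annotated 3′ end to the downstream edge of the overlapping peak, and a gene was counted as longer or shorter when it differed by at least 500 bp between 2 strains. NME1 and SNR14 were longer with sen1 in both pairs of strains (sen1 against wild type, sen1rrm3 against rrm3). SNR19 and LSR1 changed by at most 71 bp in these pairs. TLC1 was shorter in both pairs. No gene of the 8 was longer or shorter by 500 bp in rrm3 against wild type, except that SNR14 was shorter by this rule (-692 bp against -38 bp) when peaks up to 300 bp apart were joined.

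At NME1, the peak reached 758 bp past the 3′ end in wild type and 909 bp in rrm3, and 3238 bp in sen1 and 3760 bp in sen1rrm3. Both values with sen1 are thus above both values without it. The sen1 peak ran on chromosome XIV from 585489 to 589164, and the wild-type peak from 585450 to 586684, and over the 4 strains the upstream edge stayed 98 to 140 bp before the gene. The snoRNA gene SNR66 lies 163 bp downstream of NME1 on the same strand and under the same peak in all 4 strains, so the reach of transcription from NME1 and from SNR66 cannot be told apart.

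The stretch behind NME1 was not empty in wild type. Rpb1 covered 51.6% of the 3000 bp downstream of NME1 in wild type and 54% in rrm3, in separate peaks, and 100% in sen1 and in sen1rrm3. Beyond SNR66 lie 3 genes on the opposite strand. KSH1, which takes part in Golgi transport, was covered at 37.9% in wild type and 100% in the 3 mutants. EFM6, a methyltransferase that modifies translation elongation factor eEF1A, was covered at 40.1% in wild type, 31.3% in rrm3 and 100% in both sen1 strains. FAP1, which binds the FKBP12 protein Fpr1, was covered at 9.04% (wild type) and 9.25% (rrm3), against 55.1% (sen1) and 49.1% (sen1rrm3). The longer peak thus spans both the separate wild-type peaks and the gaps between them.

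At SNR14, the peak reached 707 bp (wild type) and 669 bp (rrm3) downstream of the gene without sen1, against 1689 bp (sen1) and 1598 bp (sen1rrm3). The values with sen1 were again both above those without it. The sen1 peak lay on chromosome V from 165738 to 167638, and it took in the whole of TMA20, a ribosome-associated protein gene that follows SNR14 on the same strand, and 22.2% of PAC2, a tubulin-folding gene beyond it. TMA20 was covered at 60.1% in wild type, 19.7% in rrm3 and 100% in both sen1 strains. PAC2 lies on the opposite strand. Rpb1 from SNR14 and Rpb1 on TMA20 or PAC2 cannot be told apart in these lists, which carry no strand. Wild type had a second peak just beyond, and when peaks up to 300 bp apart were joined, the excess of sen1 over wild type fell from 982 bp to 328 bp and was no longer counted. The excess of sen1rrm3 over rrm3 was 929 bp and does not depend on this joining.

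The peaks over the U1 and U2 genes showed no such reach. At SNR19 the distances were 728 bp (wild type) and 740 bp (rrm3), against 687 bp (sen1) and 669 bp (sen1rrm3). At LSR1 they were 440 bp, 432 bp, 427 bp and 432 bp in the same order. The values with and without sen1 at LSR1 thus lie within 13 bp of each other. The LSR1 peak also covered all of COQ21 in each strain, and the SNR19 peak 44.9% to 56.4% of SSU72. Both are downstream neighbours on the opposite strand, so Rpb1 on them and on LSR1 or SNR19 cannot be told apart. SNR7-L, the longer U5 RNA gene, which is not among the 8, had 569 bp (wild type) and 548 bp (rrm3), against 646 bp (sen1) and 584 bp (sen1rrm3). Of the spliceosomal RNA genes made by RNA polymerase II, SNR14 alone passed the 500 bp rule.

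**Figure D2:**
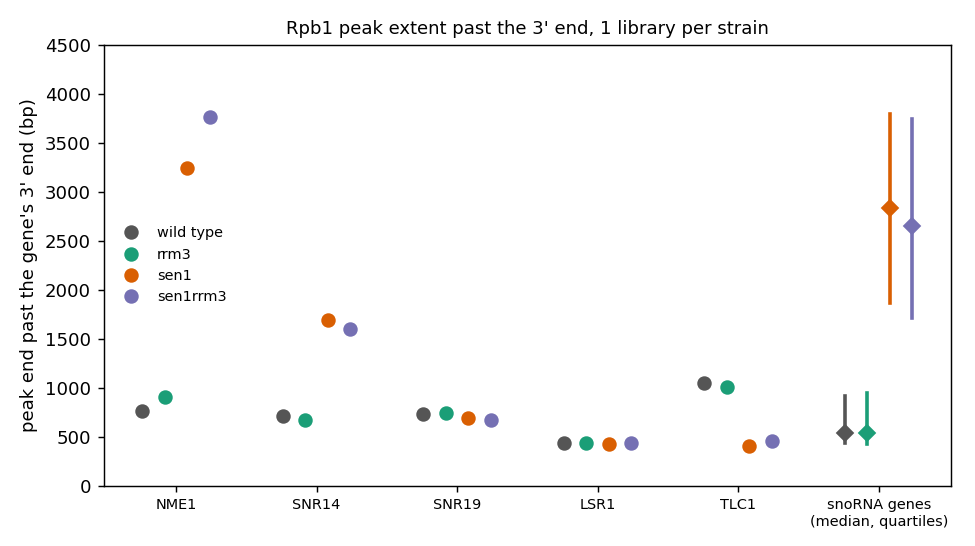
Distance in bp by which the Rpb1 peak passes the gene's 3′ end, 1 point per strain, for the 5 genes made by RNA polymerase II, with the median and quartiles of 64 snoRNA genes at the right. In sen1 and sen1rrm3, NME1 rises to 3238 and 3760 bp, TLC1 drops to 410 and 455 bp, and LSR1 stays at 427 and 432 bp.

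At TLC1 the order was reversed. The distance was 1051 bp in wild type and 1009 bp in rrm3, and 410 bp in sen1 and 455 bp in sen1rrm3, so that the values with sen1 were both below those without it. The wild-type peak lay on chromosome II from 307644 to 309938 and the sen1 peak from 307702 to 309297. Rpb1 covered 100% of the 1000 bp downstream of TLC1 in wild type and rrm3, 41% in sen1 and 45.5% in sen1rrm3. The downstream neighbour, CSG2, needed for making mannosylated sphingolipids, lies on the opposite strand with its 3′ end towards TLC1, and its cover went from 69.6% in wild type and 66.2% in rrm3 to 17.6% in sen1 and 21.2% in sen1rrm3. Rpb1 on TLC1 and on CSG2 cannot be told apart in these lists, which carry no strand.

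On its other side, TLC1 has the snoRNA gene SNR161, 241 bp away and transcribed in the opposite direction. The Rpb1 peak over SNR161 passed its 3′ end by 870 bp (wild type) and 892 bp (rrm3), against 2757 bp (sen1) and 2733 bp (sen1rrm3). Wild type and rrm3 had a separate peak further downstream of SNR161, and the single peak of the sen1 strains took in both and ended no further out. In sen1rrm3 the cover of TLC1 was broken into 2 peaks, the first of which, from 307802 to 308082, ranked 2015 of 2016 by the authors' score. Without that peak the cover of TLC1 in sen1rrm3 was 36.0%, from the second peak, which ran from 308420 to 309342.

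These counts can be read against all genes with a peak in both lists. Of 2320 such genes, 9.35% were longer and 5.52% shorter in sen1 than in wild type. Of 2292 genes, 8.46% were longer and 5.37% shorter in sen1rrm3 than in rrm3. In rrm3 against wild type the shares were 3.15% longer and 2.7% shorter. Among the 5 RNA polymerase II genes, 2 were longer and 1 shorter with sen1. Among the 64 snoRNA genes outside protein-coding genes, 55 were longer in sen1 and none was shorter, while LSR1, SNR19 and TLC1 were not longer. The difference between these sets was not tested. In sen1rrm3 against sen1, where 2.03% of genes were longer and 2.34% shorter, NME1 was longer by 522 bp, and this was lost when peaks up to 300 bp apart were joined (-1 bp).

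SCR1 and SNR6 stayed free of Rpb1 peaks in the sen1 strains, and RPR1 met only the edge of its neighbour's peak. The nearest Rpb1 peak to SCR1 lay 1071 bp away in wild type, 785 bp in sen1, 812 bp in rrm3 and 797 bp in sen1rrm3, over the reading frame YER138C of a Ty element. The tRNA gene YNCE0025C between them had 0% in each strain. SNR6 was still further from Rpb1, with 2425 bp in wild type, 2545 bp in sen1, 2415 bp in rrm3 and 2499 bp in sen1rrm3 to a peak over AHP1, a peroxiredoxin gene, and CCW12, a cell wall protein gene. That peak ranked first by score in wild type, on chromosome XII from 368771 to 370313. RPR1 had 8 bp at its 3′ end under a peak in wild type (2.17% of the gene), 26 bp in sen1, 28 bp in rrm3 and 0 bp in sen1rrm3. This peak covered all of TIM9, a mitochondrial import chaperone gene that faces RPR1 from its 3′ side.

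For tRNA genes, which the same polymerase makes, the Rpb1 lists differed with sen1: of 275, 59 (wild type) and 62 (rrm3) were touched without it, against 136 (sen1) and 108 (sen1rrm3). None of SCR1, RPR1 and SNR6 gained a peak in this way. SNR52, a snoRNA gene also made by RNA polymerase III, was at 0% in all 4 strains as well. With 4 genes and 1 library per strain, a difference between these genes and tRNA genes was not tested.

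bTMP peaks did not follow the same split. LSR1 was touched in 19 of the 20 bTMP lists and SNR19 and TLC1 in 18 each, as were 21.1% of all genes in at least 18. SNR14 was touched in 4 lists and NME1 in 2, although Rpb1 covered them fully in S phase. LSR1 (1175 bp), SNR19 (568 bp) and TLC1 (1301 bp) are also the longest of the 8 genes. SCR1 has 522 bp, RPR1 369 bp, NME1 340 bp and SNR14 160 bp. How far the counts of lists follow gene length was not tested. Of the RNA polymerase III genes, SCR1 was touched in 5 lists, RPR1 in 3 and SNR6 in none, as were 14.6% of all genes and 46.2% of the 366 genes of 130 bp or shorter (SNR6 has 112 bp). None of the 3 had a peak in any of the 14 closely spaced lists, which holds for 31.6% of all genes, and the same was true of NME1. SCR1, RPR1 and NME1 had peaks in widely spaced lists alone, as did 16.9% of all genes.

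**Figure D3:**
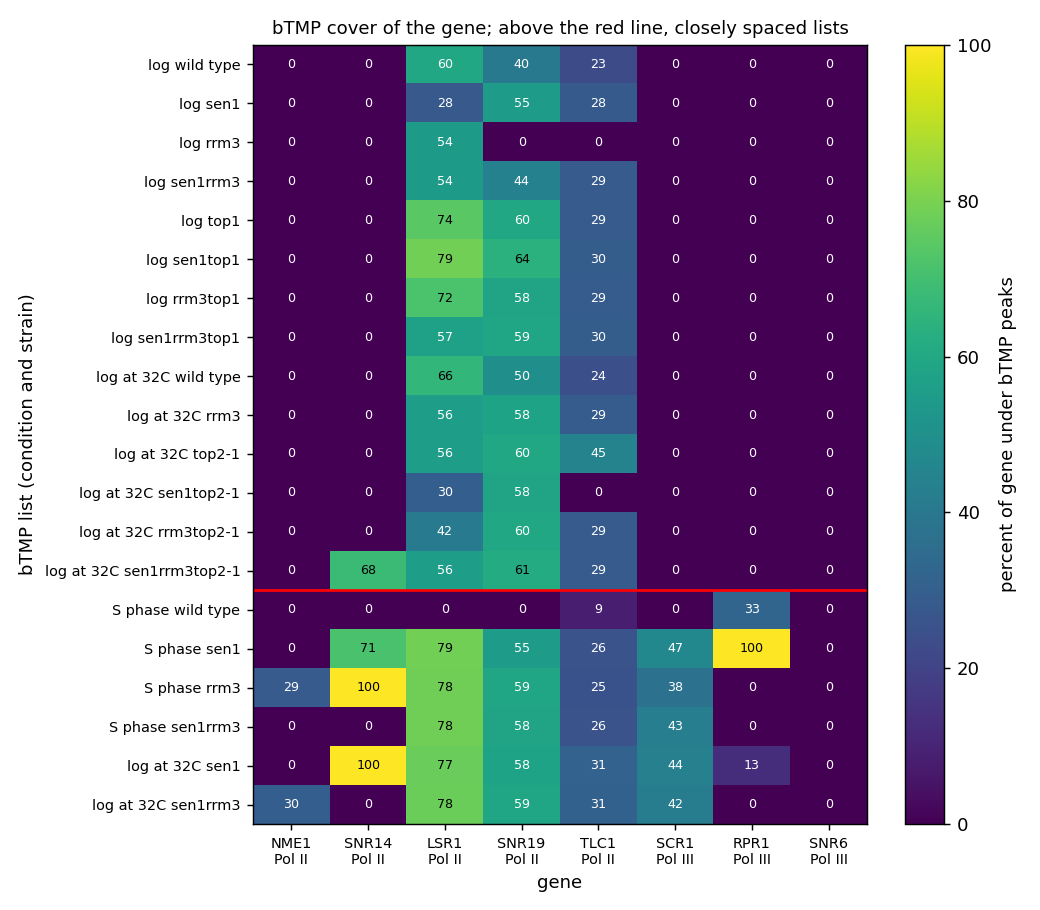
Percent of each gene under bTMP peaks in each of the 20 lists (rows, condition and strain; closely spaced lists above the red line, widely spaced below) for the 8 genes (columns). LSR1, SNR19 and TLC1 have cover in nearly every row, SCR1 in 5 of the 6 widely spaced lists and in no other, and SNR6 in none.

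Over LSR1, bTMP cover ranged from 28.1% to 78.6% of the gene in the 14 closely spaced lists, with a median of 55.8%. The log-phase values were 59.6% (wild type), 28.1% (sen1), 54.5% (rrm3) and 54.4% (sen1rrm3). With top1 it was 74.5%, in sen1top1 78.6%, in rrm3top1 71.6% and in sen1rrm3top1 57.3%, each above its partner without top1. In S phase the cover was 78.8% in sen1, 78.5% in rrm3, 78.3% in sen1rrm3 and 0% in wild type, where the nearest peak lay 343 bp away. The S-phase wild-type list thus stands apart from the other 19 at this gene.

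Over SNR19, the median was 58.3% in the closely spaced lists and 58.2% in the widely spaced ones. The log-phase values were 40.5% (wild type), 55.3% (sen1), 0% (rrm3) and 44.0% (sen1rrm3). The only lists without a peak over SNR19 were that of log-phase rrm3 and, as at LSR1, that of S-phase wild type. At 32 °C the 8 lists ran from 49.6% in wild type to 61.4% in sen1rrm3top2-1.

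TLC1 had less of its length under bTMP, with a median of 28.7% over the 20 lists. The value was 23.4% in log-phase wild type, 28.3% in sen1, 28.7% in sen1rrm3 and 0% in rrm3. The highest value was 44.8%, in top2-1 at 32 °C, which had a second peak near the 3′ end, and the list of sen1top2-1 had none. Log-phase rrm3 and sen1top2-1 were the only lists without a peak over TLC1. In S phase the values were 8.53% in wild type, 25.7% in sen1, 25.3% in rrm3 and 25.7% in sen1rrm3.

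The positions of these bTMP peaks recurred from list to list. Over LSR1 the upstream edge lay between 249 and 276 bp inside the gene in the 19 lists with a peak, and 4 of them (log wild type, log sen1, sen1top2-1 and rrm3top2-1) had 2 peaks over the gene in place of 1. Over SNR19 the edges lay, at the median, 236 and 599 bp from the start of the 568 bp gene, so the peak took in the 3′ part of the gene and ended just past it. Over TLC1 the peak in closely spaced lists began a median of 25 bp and ended a median of 398 bp from the start of the 1301 bp gene, apart from the second peak in top2-1. In the 6 widely spaced lists the TLC1 peak began upstream of the gene, with all 300 bp upstream covered, and that stretch reaches towards SNR161. Of the 14 closely spaced lists, 2 had any cover there, and log-phase rrm3 had a separate peak further upstream, from 306883 to 307285. Widely spaced lists have no gap under 591 bp, so a peak upstream and one over TLC1 may be joined in them, which was not tested. No list had a bTMP peak in the 300 bp upstream of LSR1, SNR19 or NME1.

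**Figure D4:**
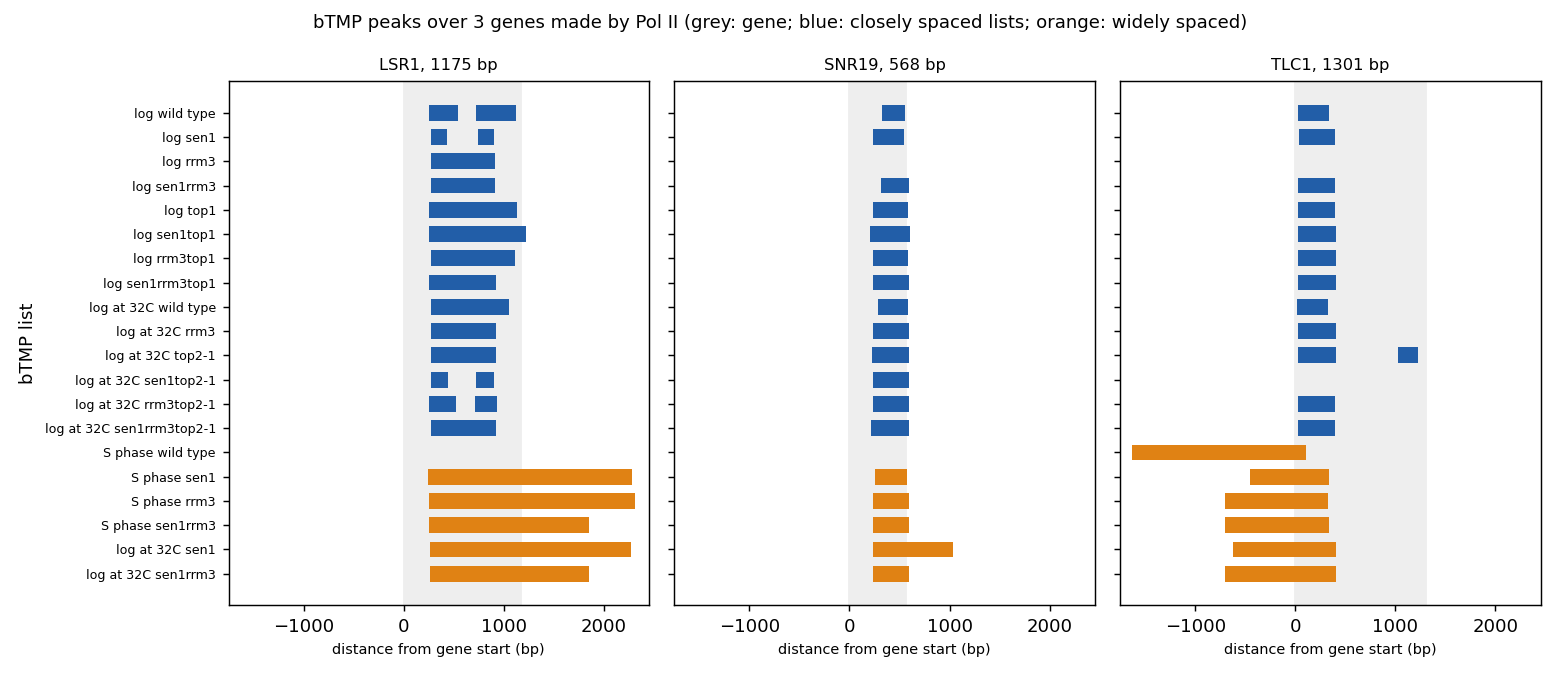
bTMP peaks over LSR1, SNR19 and TLC1 in each of the 20 lists (rows), in bp from the gene start along the direction of transcription (grey, the gene; blue, closely spaced lists; orange, widely spaced). The upstream edge falls 249 to 276 bp inside LSR1 in every list with a peak, and near the start of TLC1 in the closely spaced lists.

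The genes with rare bTMP peaks had them mainly in widely spaced lists. SCR1 was covered at 46.6% in S-phase sen1, 37.5% in rrm3 and 42.9% in sen1rrm3, and at 43.7% in sen1 and 42.1% in sen1rrm3 at 32 °C. These 5 peaks covered the 3′ part of SCR1 and ran past its end, for example on chromosome V from 442266 to 442748 in S-phase sen1. The sixth widely spaced list, S-phase wild type, had a peak 90 bp away. Just downstream of SCR1, 13 of the 20 lists had a peak within 1000 bp, 7 of them closely spaced. In those 7 the peak lay beside the gene, and the other 7 closely spaced lists had none there.

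RPR1 was covered at 32.5% in S-phase wild type, 100% in S-phase sen1 and 13.0% in sen1 at 32 °C. All 3 lists are of strains without rrm3. SNR14 was covered at 71.2% in S-phase sen1, 100% in S-phase rrm3, 100% in sen1 at 32 °C and 68.1% in sen1rrm3top2-1, by peaks placed 79.7% to 90.0% of the way down their lists by the authors' score. Because SNR14 is 160 bp long, a single narrow peak decides its value. NME1 was covered at 28.5% in S-phase rrm3 and 29.7% in sen1rrm3 at 32 °C, but 18 of 20 lists had a peak within 1000 bp downstream, where SNR66 and KSH1 lie. SNR6 had no bTMP peak within 330 bp in any list.

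The question whether bTMP cover shifted with sen1 or with rrm3 was put to 10 pairs of lists each, differing in that mutation only. The difference in percentage points was tested by exact permutation of its signs, two-sided. Genes touched in at least 5 of the 20 lists were tested, 4118 in all, and of the 8 genes SCR1, LSR1, SNR19 and TLC1 passed this filter. No gene of the 4118 had a Benjamini-Hochberg adjusted p under 0.05 with either mutation by this test (0% called). At an unadjusted p under 0.05 there were 238 genes with sen1 (5.78%; 4.98% higher, 0.801% lower) and 289 with rrm3 (7.02%; 3.3% higher, 3.72% lower). The smallest p that 10 pairs allow is 0.00195. Over 4118 genes, a gene with that p could pass the adjustment only if many others shared it. The lack of calls therefore does not show that cover stayed the same at any gene.

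SNR19 had more bTMP cover with sen1 in 8 of 10 pairs, a count that 4.18% of tested genes reached. The difference averaged 12.9 ± 20.1 points (SD, n = 10 pairs). The unadjusted p was 0.0156 and the adjusted p 0.662 in the exact permutation test, so the difference failed the correction. The means were 57.3% with sen1 and 44.4% without. Most of it came from the S-phase wild-type pair, 0% against 55.3%, and the log-phase rrm3 pair, 0% against 44.0%. Without the S-phase wild-type pair the mean was 8.2 points (exact permutation p = 0.0312, adjusted p = 0.815), and with lists cut to equal length it was 7.38 points (exact permutation p = 0.266, adjusted p = 0.694).

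TLC1 had more bTMP cover with sen1 in 9 of 10 pairs, a count that 0.656% of tested genes reached. Its mean difference was only 1.69 ± 18.8 points (SD, n = 10 pairs; exact permutation p = 0.752, adjusted p = 0.912), because the pair in top2-1 went from 44.8% to 0%. Without that pair the mean was 6.86 points with an unadjusted p of 0.00391, the smallest that 9 pairs allow in the exact permutation test, and an adjusted p of 0.530. In 4 of the 9 higher pairs the gain was under 1 point, and the mean was -1.32 points without the log-phase rrm3 pair.

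LSR1 was higher with sen1 in 5 pairs and lower in 5, by 5.79 ± 30.8 points on average (SD, n = 10 pairs; exact permutation p = 0.654, adjusted p = 0.874). Without the S-phase wild-type pair the mean was -2.33 points. SCR1 was higher in 4 pairs and equal in 6, by 13.8 ± 21.0 points (SD, n = 10 pairs). With 6 pairs at no difference, the smallest p its test could give is 0.125, so only the values are given. Of the 5 lists that brought SCR1 past the filter, 4 are of sen1 strains. In 2 of those 4 pairs, both at 32 °C, a closely spaced list was set against a widely spaced one, and spacing and sen1 cannot be told apart there. Over the 8 pairs of like spacing the mean was 6.49 points.

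With rrm3, the mean differences were 7.59 ± 29.3 points for LSR1, 1.67 ± 24.2 for SNR19, 1.20 ± 14.6 for TLC1 and 3.24 ± 12.1 for SCR1 (SD, n = 10 pairs each). The adjusted p was 0.86 for LSR1, 0.965 for SNR19 and 0.957 for TLC1 in the exact permutation test, and SCR1 had too few unequal pairs to reach the threshold. Each SD is larger than its mean difference. For LSR1 the S-phase wild-type pair alone gave the sign, and the mean was -0.28 points without it. With 1 pair left out, the means ranged from -4.66 to 6.36 points for SNR19, -1.88 to 3.93 for TLC1 and -0.57 to 4.00 for SCR1.

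**Figure D5:**
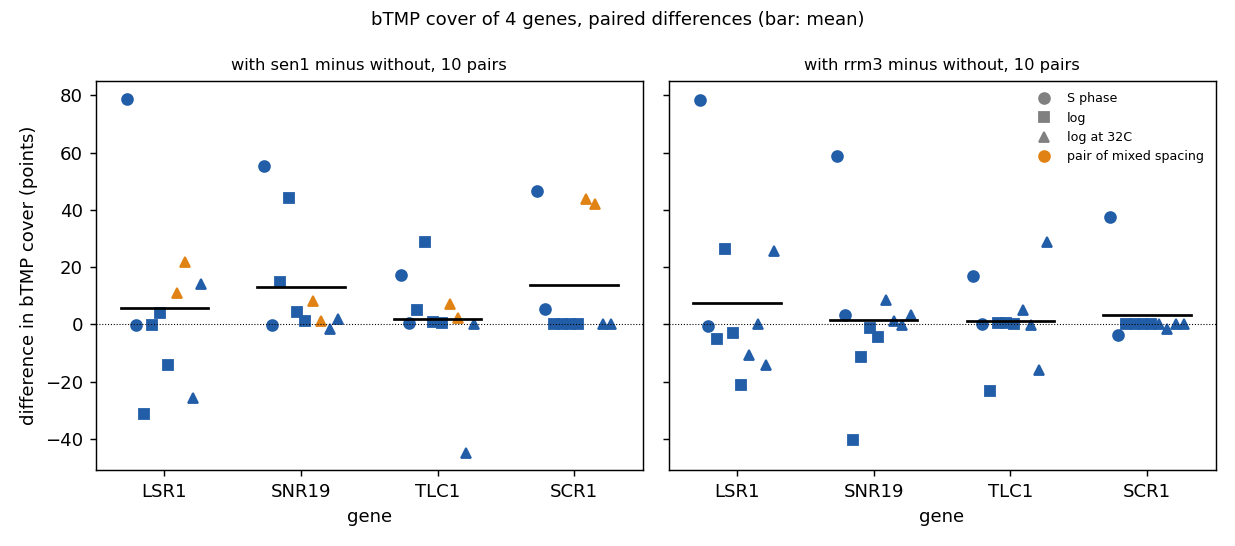
Difference in bTMP cover of 4 genes, in percentage points, between lists with and without sen1 (left) or rrm3 (right), 1 point per pair (shape, condition; orange, pairs joining a closely and a widely spaced list) and the mean as a bar. Points scatter on both sides of 0 except at SCR1 with sen1, and the S-phase wild-type pair lies highest at LSR1, SNR19 and SCR1.

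The mutants of topoisomerases were compared over 4 pairs each, where the smallest p possible is 0.125, so only values are given. With top1 in log phase, cover was higher in 4 of 4 pairs at LSR1 (mean 70.5% against 49.1%), at SNR19 (60.3% against 34.9%) and at TLC1 (29.2% against 20.1%). Of tested genes, 12.4% were higher in all 4 top1 pairs. The 4 top1 lists were among the closely spaced ones, as were their partners, and covered 9.44% to 11.7% of the genome against 8.34% to 10.2% in the partners. With top2-1 at 32 °C, LSR1 was lower in 4 of 4 pairs (45.8% against 69.2%), as were 6.99% of tested genes, and 2 of those pairs joined lists of different spacing. SNR19 was higher in 4 of 4 (59.8% against 56.2%), as were 1.68% of tested genes, and TLC1 was higher in 1 and lower in 3.

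Among the genes that lay under the longer Rpb1 peaks of sen1, EFM6 behind NME1 had more bTMP cover with sen1 in 9 of 10 pairs. The mean difference was 31.6 ± 26.7 points (SD, n = 10 pairs; exact permutation p = 0.00781, adjusted p = 0.662), and the exception was the log-phase rrm3 pair, 52.2% against 22.4%. In S phase EFM6 went from 42.6% in wild type to 81.6% in sen1 and from 42.4% in rrm3 to 95.5% in sen1rrm3. The S-phase lists covered 17.5% of the genome in wild type and 25.9% in sen1, and 23.3% in rrm3 and 24.6% in sen1rrm3. At least 9 higher pairs were seen at 0.656% of tested genes. At 32 °C, the pairs of wild type with sen1 (39.1% against 77.9%) and rrm3 with sen1rrm3 (0% against 59.0%) joined lists of different spacing. There, spacing and sen1 cannot be told apart at EFM6. KSH1, next to it, differed by -11.8 ± 32.4 points (SD, n = 10 pairs; exact permutation adjusted p = 0.766). FAP1, beyond EFM6, was higher in 2 pairs, lower in 2 and equal in 6, by -0.96 ± 8.27 points (SD, n = 10 pairs). TMA20 and PAC2 behind SNR14 had no bTMP peak in any list. EFM6 had already stood out in earlier results of these data.

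The genes whose bTMP cover most resembled that of the 8 over the 20 lists were picked by Pearson's r, on other chromosomes. For LSR1 they were SNR86, a snoRNA gene (r = 0.89, and 0.82 within the 14 closely spaced lists), and ASH1, a mating-type switching regulator (0.88 and 0.78). For SNR19 they were SAP190, a phosphatase-associated gene (0.86 and 0.75), and SNR128, a snoRNA gene (0.85 and 0.91). For TLC1 they were IWR1, an RNA polymerase II import factor (0.75 and 0.76), and YDL009C (0.74 and 0.73). For SCR1 the closest were a tRNA gene, YNCB0015W, and COQ21 (0.997 each), which like SCR1 had no cover in closely spaced lists. COQ21 is the downstream neighbour of LSR1, and the widely spaced peaks over LSR1 ran across it. The 5 lists with cover at SCR1 were widely spaced and all of strains with sen1 or rrm3. Whether this likeness follows spacing or strain was not tested. Spearman's rho over the 20 lists was 0.81 and 0.84 for LSR1 with SNR86 and ASH1, but 0.48 and 0.55 for SNR19 with SAP190 and SNR128, and 0.40 and 0.61 for TLC1 with IWR1 and YDL009C. These values describe 20 lists that share 2 kinds of spacing and, in part, strains, and the genes were the highest of all those compared.

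The protein partners of these RNAs were listed by role, 56 genes in all: Sm and Lsm proteins, RNase P and MRP proteins, signal recognition particle proteins, telomerase proteins, RNA polymerase III with its factors, and the RNA end-binding genes LHP1 and TGS1. Rpb1 touched 32 of them (wild type), 31 (rrm3), 31 (sen1) and 26 (sen1rrm3). In sen1 against wild type, cover rose by at least 50 points at 2 of them and dropped by as much at 2, against 4.54% and 1.66% of all genes. RPC17, a subunit of RNA polymerase III, went from 0% to 53.5%, and TGS1, which hypermethylates the caps of spliceosomal RNAs, from 0% to 53.2%. RPC82, another subunit, went from 73.6% to 8.19%, and SRP72, of the signal recognition particle, from 85.2% to 30.3%. None of the 3 telomerase genes EST1, EST2 and EST3 had an Rpb1 peak in any strain.

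In sen1rrm3 against rrm3, 3 partner genes dropped by at least 50 points and none rose, against 1.42% and 3.02% of all genes. All 3 were Sm or Lsm genes: SMX2 (96.6% to 0%), SMX3 (100% to 44.4%) and LSM5 (74.5% to 0%). In sen1 these 3 had 77.4%, 54.0% and 74.8%, against 70.1%, 100% and 100% in wild type. In rrm3 against wild type no partner gene moved by 50 points, against 0.295% up and 0.482% down among all genes. Of the 27 partner genes with a peak in both wild type and sen1, none was longer by 500 bp past its 3′ end and 3 (11.1%) were shorter. The shares of all genes were 9.35% and 5.52%. In sen1rrm3 against rrm3, 1 of 23 was longer and 1 shorter (4.35% each), against 8.46% and 5.37% of all genes.

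bTMP cover was tested at 36 of the 56 partner genes. The median difference with sen1 was 3.03 points, against 4.19 over all tested genes, and with rrm3 it was 3.97 points, against 0.10. None passed the adjusted threshold with either mutation. At an unadjusted p under 0.05, 1 of the 36 passed with sen1, against 5.78% of all tested genes. With rrm3, 1 of the 36 passed, against 7.02% of all tested genes. The gene with sen1 was BDP1, a subunit of the RNA polymerase III initiation factor TFIIIB. It was higher by 17.0 ± 20.0 points (SD, n = 10 pairs, exact permutation p = 0.0312, adjusted p = 0.662). The gene with rrm3 was LSM7, higher by 16.7 ± 31.9 points (SD, n = 10 pairs, exact permutation p = 0.00781, adjusted p = 0.613).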

How the data were processed

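The deposited lists, 1 per immunoprecipitate, hold each peak's position and a score, a value of the authors with no stated meaning, used here to rank peaks inside a list. Bowtie2, Picard, SAMtools and deepTools are named in the submitters' processing notes. For the peak caller, its options and the build, nothing is given in the sources used here, and read depth is unknown.

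Genes came from the RefSeq R64 table, with strand read from systematic names. The assignment was checked on 138 ribosomal protein genes: their wild-type Rpb1 cover was 99.3% unshifted, and 79.9% and 85.1% after shifts of -400 and 400 bp. No coordinates of this table are printed, and peak positions count from 1. Cover is the share of a gene's base pairs under peaks. Distances past the 3′ end use every peak that overlaps the gene. Tests were exact sign-flip permutation tests over pairs of lists, written in Python 3.11.15 with numpy 2.4.6 and tested on simulated data, with Benjamini-Hochberg adjustment over the 4118 genes touched in at least 5 lists. Strain backgrounds and growth conditions act as repeats, so a p-value measures the spread over both together, not over replicate cultures. For sen1, the wild-type and rrm3 backgrounds each enter once per growth condition, and for rrm3 the wild-type and sen1 backgrounds do. The test treats these repeated backgrounds as independent pairs. Each list enters 1 pair per mutation.

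Named genes were the 8, their neighbours and genes under the same Rpb1 peaks, the 2 most alike in bTMP cover, SNR7-L, SNR52, SNR161 and partner genes past a threshold. The members and lists were chosen with earlier results of these data known. Of 57 partner symbols listed, 56 matched the table. Sequences were not used here. Alternatives were other distance and overlap rules, joined peaks, upper-ranked and equal-length lists, other windows and pairs left out.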

Additional observations from a re-analysis of the deposited data

Results flagged for a closer look

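SNR19 was the only one of the 8 genes where a mutation moved bTMP cover one way in every pair of one condition and the other way in every pair of another. With rrm3, its cover was higher in both S-phase pairs and lower in all 4 log-phase pairs, and the mean differences of the 2 conditions were 45.3 points apart. In S phase the values were 0% (wild type) against 58.6% (rrm3), and 55.3% (sen1) against 58.5% (sen1rrm3). In log phase they were 40.5% (wild type) against 0% (rrm3), 55.3% (sen1) against 44.0% (sen1rrm3), 59.5% in top1 against 58.3% in rrm3top1, and 63.9% in sen1top1 against 59.3% in sen1rrm3top1. At 32 °C the pairs went both ways: 49.6% (wild type) against 58.1% (rrm3), and 57.9% (sen1) against 59.2% (sen1rrm3). With top2-1 they were 59.9% in top2-1 against 59.5% in rrm3top2-1, and 58.3% in sen1top2-1 against 61.4% in sen1rrm3top2-1. How many of all tested genes meet the same rule was not counted. The difference between S phase and log phase was not tested, and 2 lists without a peak, S-phase wild type and log-phase rrm3, carry most of it.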

How the results depend on the processing

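Counts of members longer past the 3′ end by Rpb1 were 2 for sen1 against wild type, 2 for sen1rrm3 against rrm3, 0 for rrm3 against wild type and 1 for sen1rrm3 against sen1. With a rule of 1000 bp they were 1, 1, 0 and 0. With peaks joined across gaps of up to 300 bp they were 1, 2, 0 and 0, the SNR14 difference of sen1 against wild type falling to 328 bp, that of rrm3 against wild type moving from -38 to -692 bp, that of NME1 for sen1 against wild type rising to 3003 bp, and the NME1 difference of sen1rrm3 against sen1 turning from 522 to -1 bp, as a further sen1 peak lies just downstream. With 250 bp, with the upper-scored part of each list, with equal lengths and with a peak over at least 50% of the gene, these counts did not change. The number of members covered by at least 50% stayed at 5 in wild type, sen1 and rrm3 under the alternatives run, and was 4 in sen1rrm3 with upper-scored peaks, where TLC1 had 36.0%.

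No gene was called for bTMP with sen1 or rrm3 under any window, equal-length lists, no filter, pairs of 1 spacing or with each pair left out (0 to 0 in both). At an unadjusted p under 0.05, the sen1 count of 238 was 95 with the 8 pairs of 1 spacing and 126 to 318 with a pair left out (138 without the S-phase wild-type pair, 137 without the 32 °C wild-type pair, 126 without the 32 °C rrm3 pair), and the rrm3 count of 289 was 184 to 302 (184 without the S-phase sen1 pair, 192 without the log-phase sen1 pair). All rrm3 pairs join lists of 1 spacing. For SNR19 with sen1, the mean ranged from 8.2 to 14.5 points with a pair left out and was 7.38 with equal-length lists. The pairs are lists that differ in 1 mutation; with 1 library per group, no replicate numbers exist to serve as a block. Depth is unknown, so a gene without a peak may hold signal under the threshold.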
